A study of Mus musculus with 12 samples.

Results

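Immediate early genes are switched on by growth factor, cytokine and stress signals without the need for new protein, and RNA polymerase II (Pol II) at these genes was described here in epithelium of the mouse duodenum. The members were a fixed list of 10 well-known genes of this class: Fos, Fosb, Jun, Junb, Egr1, Atf3, Ier2, Ier3, Dusp1 and Zfp36. Of these, 8 were found in both tables of comparisons deposited by the authors, which hold 6429 genes each, and Fosb and Ier3 were not among the genes of the tables. Pol II binding was measured by chromatin immunoprecipitation and sequencing (ChIP-seq).

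The labels list 3 Pol II libraries for each of 3 groups. WT villus and WT crypt cells came from adult mice given vehicle, an ethanol and corn oil mixture, by injection. Villus cells labelled as lacking both Hnf4a and Hnf4g (labelled-DKO villus) came from mice given tamoxifen at 50 mg per kg per day for 2 days and killed 1 day after the last dose. The labels used here do not name the Cre driver or the strain. The epithelium was loosened with 3 mM EDTA for 35 minutes in WT and 25 minutes in mutant mice, and a 70 µm filter held back the villi. Genotype, tamoxifen and EDTA time therefore cannot be told apart between the villus groups.

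In a quiet cell immediate early genes already carry Pol II and bound activators such as serum response factor, ETS-family and cyclic AMP response factors. ERK and related kinases act on these factors and release Pol II into the gene within minutes. The products include the AP-1 subunits of the FOS and JUN families, other transcription factors, and inhibitors that end the response. In the intestine they take part in epithelial growth factor signalling and repair, and they are also known to respond to the handling of tissue.

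The bases before the start of 5 members are shown, chosen after their values and motif matches were seen. They are the members with the 5 highest fold changes for villus over crypt, and Dusp1 was taken for its TGACGTCA. The sequences are RefSeq's for the 250 bases before the annotated start, GRCm38.p6, in the direction of the gene. Capitals mark TGACG and TATAAA in Fos, the CArG box (the element bound by serum response factor) in Zfp36, TGACG and CCAAT in Junb, TGACNTCA and CCAAT in Jun, and TGACGTCA in Dusp1. Their positions are chr12:85473640-85473889 (plus strand) for Fos, chr7:28379229-28379478 (minus) for Zfp36, chr8:84978749-84978998 (minus) for Junb, chr4:95052223-95052472 (minus) for Jun and chr17:26508473-26508722 (minus) for Dusp1.
Fos: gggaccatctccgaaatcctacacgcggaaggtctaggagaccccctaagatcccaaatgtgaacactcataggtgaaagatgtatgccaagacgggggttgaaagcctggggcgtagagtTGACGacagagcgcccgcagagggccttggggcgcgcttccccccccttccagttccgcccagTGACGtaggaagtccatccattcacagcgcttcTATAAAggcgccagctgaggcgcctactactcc
Zfp36: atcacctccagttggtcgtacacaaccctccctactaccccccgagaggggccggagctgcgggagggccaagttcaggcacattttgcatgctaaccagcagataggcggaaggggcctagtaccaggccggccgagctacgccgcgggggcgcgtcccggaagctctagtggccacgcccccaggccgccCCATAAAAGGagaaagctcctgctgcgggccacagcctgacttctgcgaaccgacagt
Junb: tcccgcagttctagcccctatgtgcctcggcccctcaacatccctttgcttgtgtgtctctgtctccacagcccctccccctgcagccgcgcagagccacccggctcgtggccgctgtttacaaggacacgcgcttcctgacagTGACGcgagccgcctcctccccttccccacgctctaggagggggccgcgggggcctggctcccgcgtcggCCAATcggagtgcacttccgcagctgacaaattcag
Jun: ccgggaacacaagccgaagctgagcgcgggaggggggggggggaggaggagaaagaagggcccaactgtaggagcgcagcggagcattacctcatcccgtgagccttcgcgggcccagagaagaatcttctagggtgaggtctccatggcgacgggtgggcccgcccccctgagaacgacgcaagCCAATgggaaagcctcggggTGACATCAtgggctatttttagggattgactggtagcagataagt
Dusp1: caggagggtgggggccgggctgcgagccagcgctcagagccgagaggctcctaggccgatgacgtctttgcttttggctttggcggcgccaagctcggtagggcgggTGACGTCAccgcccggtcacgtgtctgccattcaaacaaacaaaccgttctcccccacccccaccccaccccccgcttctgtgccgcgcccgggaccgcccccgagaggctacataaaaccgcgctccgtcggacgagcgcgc

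Promoter sequences were matched for 8 of the 10 members. Those of Egr1 and Ier2 were not searched, so nothing is known here of their motifs. The search covered both strands of the 250 bases. TGACG, the core of the cyclic AMP response element, was present in 5 of the 8 (Fos, Fosb, Junb, Atf3 and Dusp1), and in 17.8% of all 32841 promoters in the table. The Fos copies begin 129 and 66 bases before the start, and its TATAAA begins at base -33. The full palindrome TGACGTCA, which contains TGACG on both strands, was found in Dusp1 alone, from base -143 to -136, and in 1.55% of all promoters. The variant TGACNTCA was found in Jun, from base -45 to -38, and again at the Dusp1 palindrome, and in 7.49% of all promoters. The CArG box was found in Zfp36 alone, from base -58 to -49, and in 1.47% of all promoters. The well-known serum response element of Fos lies further upstream than this window. The GC box GGGCGG was present in 7 of the 8, against 32.7% of all promoters, and CCAAT in 3, against 33.9%. The AP-1 element TGANTCA and the HNF4 element CAAAGTCCA were in none of the 8 windows, and in 6.75% and 0.384% of all promoters. All 8 windows were richer in G and C than the median promoter, at 54.4% for Ier3 to 68.8% for Fosb against 52.4%. The observed over expected ratio of CG pairs was 0.47 for Ier3 to 0.97 for Dusp1, against a median of 0.37. TGACG holds such a pair, and motif shares among promoters of like content were not tested. A match is only a match of letters, and binding of these factors was not measured.

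The values below are the authors' deposited log2 fold changes ± their standard error (SE), with DESeq2 adjusted p-values, and a gene was called at an adjusted p under 0.05. A positive value means more signal in WT villus. The tables give no value for a single library, so the level of each gene in each group was rebuilt from the deposited overall mean and the fold changes, in size-factor-normalised counts and assuming groups of equal size. These levels carry no spread of their own. The tables do not state over which window reads were counted, so levels were compared within a gene and not between genes. The tables' mean signal ran from 13.1 to 6634, and the depth of each library was not analysed here. A lower signal in bulk tissue can come from fewer cells of a type or from less Pol II per cell, and these cannot be told apart. Pol II at the targeted genes was not lower in the mutant group: the authors' deposited table gave -0.54 ± 0.14 for Hnf4a (adjusted p 4.84e-04) and -1.45 ± 0.22 for Hnf4g (adjusted p 7.81e-10) in WT over labelled-DKO villus. Signal outside any deleted exons counts toward these values, so they do not check the deletion, and each direction between villus groups rests on the labels.

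Pol II at immediate early genes was higher in villus than in crypt. Of the 8 tested members, 7 were called higher in WT villus in the authors' deposited table, where 18.6% of all 6429 genes were. No member was called higher in crypt and all 8 values lay above 0, whereas 18.8% of all genes were called toward crypt. With a log2 fold change beyond 1 required as well, 4 members passed, against 3.52% of all genes. The members' median log2 fold change was 1.17, beside -0.04 for all genes. Fos had the highest value of all 6429 genes, Zfp36 ranked 16, Junb 36 and Jun 68. Between the villus groups 6 of the 8 members were called higher in WT (22.4% of all genes) and Egr1 alone was called higher in labelled-DKO villus (29.5% of all genes). With a log2 fold change beyond 1 required, 3 members passed toward WT, against 6.53% of all genes. The members' median there was 0.81, beside -0.08 for all genes. The comparisons share the WT villus libraries, so a high or low value in those libraries moves both.

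**Figure D1:**
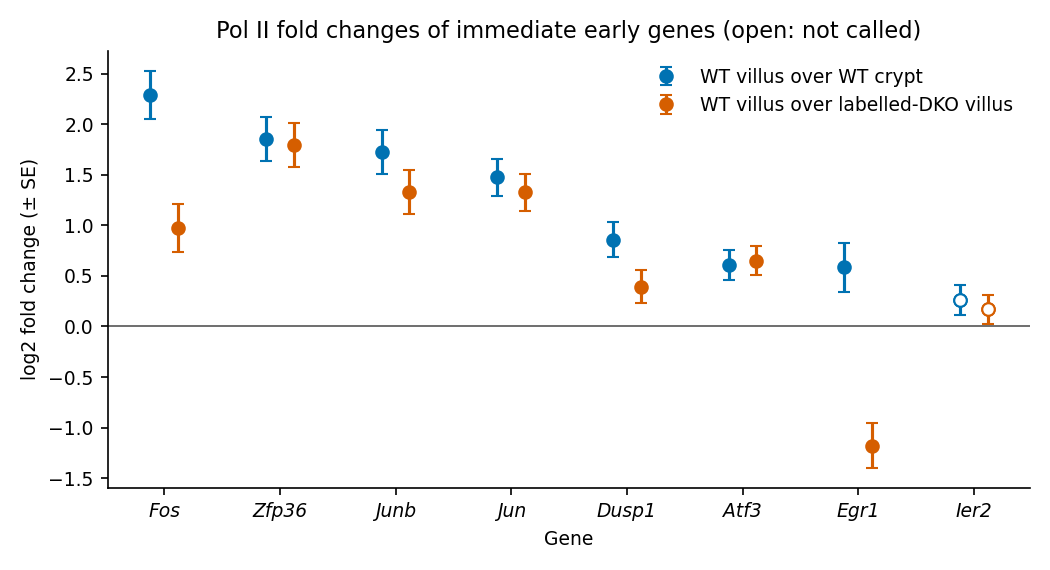
Log2 fold change of Pol II signal (y axis, ± SE) for the 8 tested members (x axis), from the authors' deposited tables, for WT villus over WT crypt (blue) and WT villus over labelled-DKO villus (orange). Open points were not called. Fos is highest against crypt at 2.29, and Egr1 is the single member below 0, at -1.18 against labelled-DKO villus.

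Fos encodes the founding FOS subunit of AP-1, the dimeric factor that binds TGANTCA. Its rebuilt Pol II level was 1000 in WT villus, 204 in WT crypt and 509 in labelled-DKO villus. The order of the groups was thus WT villus, labelled-DKO villus, crypt, and each step was called. The authors' deposited table gave 2.29 ± 0.24 for villus over crypt (adjusted p 1.03e-19), a 4.90-fold higher signal. In the authors' deposited table of the genotypes Fos had 0.97 ± 0.24 (adjusted p 1.45e-04), a 1.96-fold higher signal in WT villus. Fosl2, named here after its values were seen as the one other tested member of the FOS family, had 0.91 ± 0.14 and 0.32 ± 0.14 in the authors' deposited tables, with adjusted p-values of 2.48e-09 and 0.0407.

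Jun and Junb encode partners of FOS in AP-1, and JUNB can restrain JUN. The rebuilt level of Junb was 884 in WT villus, 268 in crypt and 351 in labelled-DKO villus. That of Jun was 373 in WT villus, 134 in crypt and 149 in labelled-DKO villus. For both genes WT villus stood well above the other groups, and the difference between those groups was not called. The authors' deposited table put villus over crypt at 1.72 ± 0.22 for Junb (adjusted p 1.63e-13) and 1.47 ± 0.19 for Jun (adjusted p 9.23e-14), values closer to each other than their summed errors. Between the genotypes the authors' deposited table gave 1.33 ± 0.22 for Junb (adjusted p 8.37e-09) and 1.33 ± 0.18 for Jun (adjusted p 5.46e-12). Jund, the remaining JUN family gene and also named after its values were seen, was called higher in WT villus in both of the authors' deposited tables, at 1.04 ± 0.24 and 0.95 ± 0.24, with adjusted p-values of 8.79e-05 and 2.18e-04.

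Egr1 encodes a zinc finger transcription factor that is a classic target of ERK through serum response factor. Its rebuilt level was 78.7 in WT villus, 52.5 in crypt and 178 in labelled-DKO villus, so the labelled-DKO villus was the highest group, unlike for every other tested member. The authors' deposited table gave -1.18 ± 0.22 for WT over labelled-DKO villus (adjusted p 5.81e-07), a 2.26-fold higher signal in labelled-DKO villus and the value ranked 88 from the lowest of 6429. Against crypt, Egr1 had 0.58 ± 0.24 in the authors' deposited table, with an adjusted p of 0.0397, which does not pass a threshold of 0.01. Atf3 encodes a stress-induced factor of the ATF family that can pair with JUN. Its rebuilt level was 219 in WT villus, 144 in crypt and 140 in labelled-DKO villus. The authors' deposited tables gave Atf3 0.61 ± 0.15 for villus over crypt (adjusted p 2.63e-04) and 0.65 ± 0.15 between the genotypes (adjusted p 3.81e-05).

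Ier2, a short early response gene whose product acts in transcription, was the one tested member with no call. Its rebuilt level was 329 in WT villus, 274 in crypt and 292 in labelled-DKO villus, so the groups lay near each other. The authors' deposited table gave 0.26 ± 0.15 for villus over crypt (adjusted p 0.153), with a 95% interval of -0.03 to 0.55. For the genotypes the authors' deposited table gave 0.17 ± 0.15 (adjusted p 0.330), with an interval of -0.12 to 0.46. These intervals leave out changes of the size seen at Fos, Jun, Junb and Zfp36 in the same comparisons.

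Dusp1 and Zfp36 act to end the response. DUSP1 removes phosphate from MAP kinases, and ZFP36 (tristetraprolin) binds AU-rich messages and speeds their decay. The rebuilt level of Zfp36 was 1403 in WT villus, 388 in crypt and 403 in labelled-DKO villus, with the last groups nearly level. The authors' deposited tables gave Zfp36 1.86 ± 0.22 for villus over crypt (adjusted p 1.25e-15) and 1.80 ± 0.22 for WT over labelled-DKO villus (adjusted p 2.49e-15), a 3.48-fold higher signal in WT and the highest of the members between genotypes. The rebuilt level of Dusp1 was 119 in WT villus, 65.6 in crypt and 90.6 in labelled-DKO villus. The authors' deposited tables gave Dusp1 0.86 ± 0.17 (adjusted p 5.74e-06) and 0.39 ± 0.16 (adjusted p 0.0313), and the second does not pass a threshold of 0.01.

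**Figure D2:**
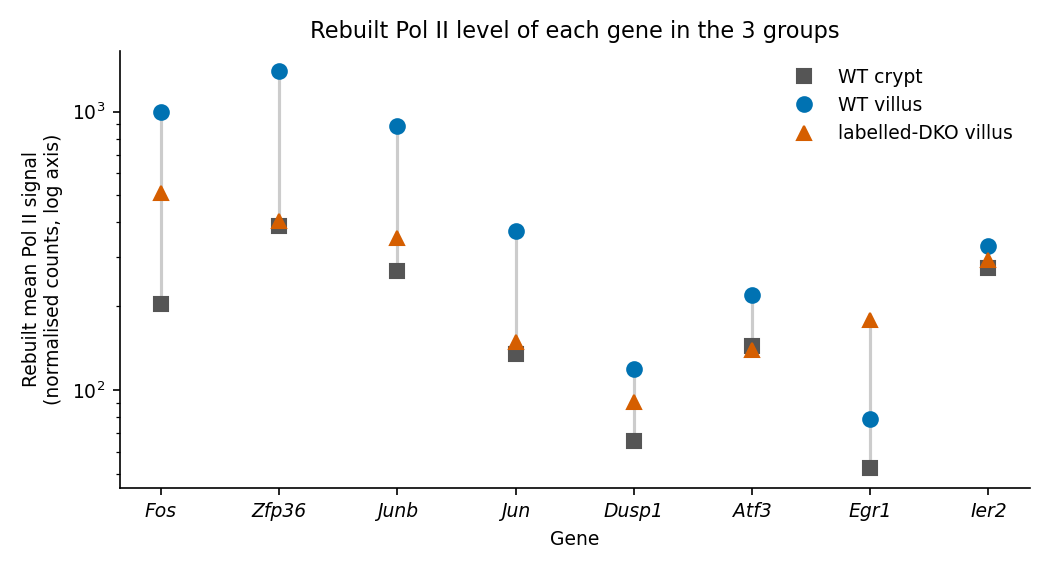
Rebuilt mean Pol II signal (y axis, size-factor-normalised counts, log axis) of the 8 tested members (x axis) in WT crypt (squares), WT villus (circles) and labelled-DKO villus (triangles), with no error shown. WT villus is the highest group for 7 members and labelled-DKO villus for Egr1, at 178.

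The members differed in where the labelled-DKO villus lay relative to crypt. The deposited fold changes were subtracted to form this comparison, with the largest standard error it can have, and its p-values were adjusted over all 6429 genes. Egr1 and Fos were called higher in labelled-DKO villus than in crypt, 2 of 8 members, where 6.41% of all genes were. Egr1 had 1.76 ± 0.32 (adjusted p 2.66e-06, Wald test formed here), a 3.39-fold higher signal. Fos had 1.32 ± 0.34 (adjusted p 0.00151, same test), a 2.49-fold higher signal. Neither AP-1 partner was called: Junb had 0.39 ± 0.31, with a 95% interval of -0.21 to 1.00, and Jun 0.15 ± 0.26. For Zfp36 the difference was 0.06 ± 0.31, with a 95% interval of -0.55 to 0.66, and for Atf3 it was -0.05 ± 0.21, with an interval of -0.45 to 0.36. Dusp1 had 0.47 ± 0.24 (adjusted p 0.197), and a smaller standard error, rebuilt from those of the tables, made it a call (adjusted p 0.0279). With that smaller error 1888 of all 6429 genes were called in either direction, in place of 874. Wide intervals at Zfp36, Junb and Jun leave room for a difference in either direction.

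**Figure D3:**
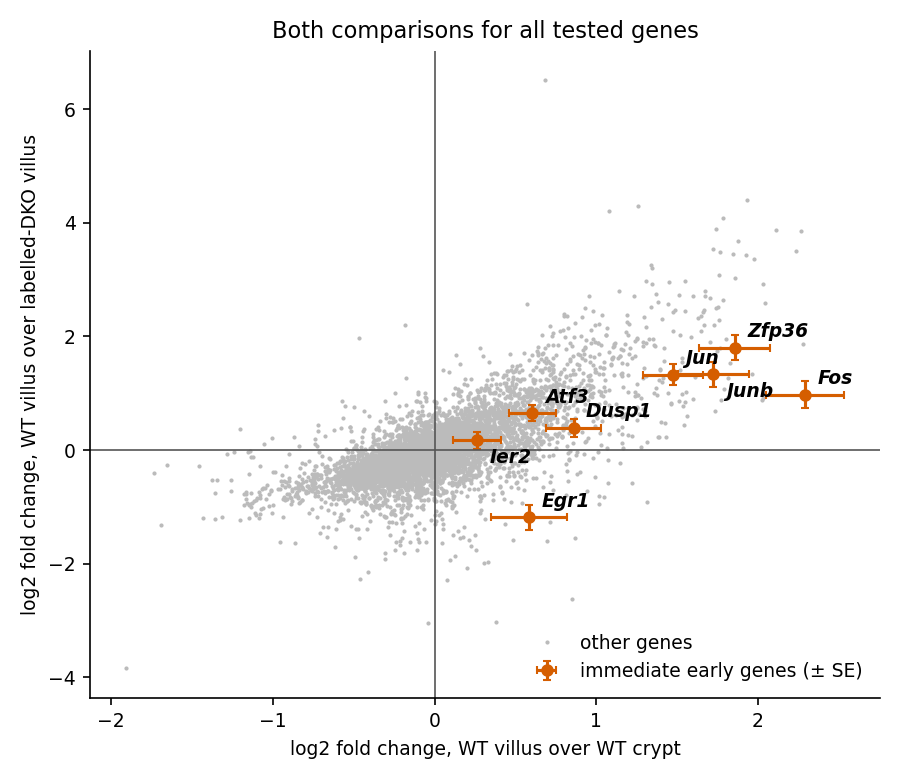
Log2 fold change of WT villus over WT crypt (x axis) against that of WT villus over labelled-DKO villus (y axis) for all genes of the authors' deposited tables (grey) and the 8 tested members (orange, ± SE). The axes share the WT villus libraries; Fos lies furthest right at 2.29, and Egr1 lies below 0 on the y axis at -1.18.

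The genes most like Fos were those with the nearest pair of fold changes by Euclidean distance over the 2 comparisons, among genes with a mean signal of at least 100. They were Mxd1, a partner of MAX that opposes MYC (distance 0.26), Krt20, a keratin of mature villus cells (0.28), Ace, a brush border peptidase (0.48), Slc13a2os (0.49) and Klf4, a factor of differentiated epithelium (0.51). The authors' deposited tables gave Krt20 2.02 ± 0.20 and 0.89 ± 0.19, and Mxd1 2.03 ± 0.26 and 0.92 ± 0.25. The nearest member was Junb, at 0.67, further than all of these, and Egr1 was the farthest at 2.75. With members included, 4393 genes had that mean signal. The pool of non-members was thus far larger than the list, and these distances do not rank Fos against its own class.

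Other early response genes were read from a list of 49, of which 37 were tested. For villus over crypt, 21 of them were called higher in villus and 2 higher in crypt in the authors' deposited table, where 18.6% and 18.8% of all genes were, with a median of 0.53. Those with the largest called changes were Klf4 at 1.79 ± 0.23, Pim1, a survival kinase, at 1.58 ± 0.20, Tob1, an antiproliferative protein, at 1.41 ± 0.23, Mcl1, an inhibitor of cell death, at 1.37 ± 0.19, and Gadd45a, a growth arrest protein, at 1.37 ± 0.26. Between the genotypes 14 were called with more signal in WT and 7 with more in labelled-DKO villus in the authors' deposited table, where 22.4% and 29.5% of all genes were, with a median of 0.12. Pim1 had the largest value there, 1.99 ± 0.20 (adjusted p 2.88e-22). Klf10, a factor induced by TGF-beta, was called in the opposite direction, at -1.61 ± 0.19 (adjusted p 1.24e-15) in the authors' deposited table, with a rebuilt level of 554 in labelled-DKO villus against 181 in WT villus and 188 in crypt. Sgk1, a kinase of salt transport, had -1.61 ± 0.48 (adjusted p 0.00213) in the authors' deposited table. Egr1 was thus one of several early genes with their highest level in labelled-DKO villus.

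Upstream of these genes, 4 of 9 listed ligands and receptors of the EGF family were tested. Hbegf, a ligand, had a rebuilt level of 304 in WT villus, 136 in crypt and 296 in labelled-DKO villus, and 1.16 ± 0.20 for villus over crypt in the authors' deposited table (adjusted p 6.54e-08). Areg, another ligand, had 701 in labelled-DKO villus against 86.4 in WT villus and 66.4 in crypt. The authors' deposited table gave Areg -3.02 ± 0.60 between the genotypes (adjusted p 2.59e-06). The receptor genes Erbb2 and Erbb3 were called higher in WT villus in both of the authors' deposited tables, by 0.27 ± 0.10 to 0.64 ± 0.14. Of 19 kinases of the ERK, JNK and p38 branches 16 were tested. Of these, 1 (Map2k2) was called higher in villus and 3 in crypt, and 1 (Mapk3) was called with more signal in WT villus and 6 with more in labelled-DKO villus, in the authors' deposited tables. The shares of all genes were 18.6% toward villus and 18.8% toward crypt, and 22.4% toward WT and 29.5% toward labelled-DKO villus, so the count toward crypt was near the background. After centring on the median of all genes, 3 in place of 6 kinases were called toward labelled-DKO villus and 2 in place of 1 toward WT villus against crypt. The kinase medians were -0.04 and -0.21. Of 11 transcription factors that ERK and its relatives act on, 4 were tested, with Atf4 called higher in WT villus and Atf1 called lower in both of the authors' deposited tables. Srf, which encodes serum response factor, was not called, at 0.20 ± 0.16 and 0.12 ± 0.16.

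Of 12 feedback regulators of the pathway 9 were tested. For villus over crypt the authors' deposited table called 3 toward villus, where 18.6% of all genes were, and did not call the other 6. Dusp6, the ERK phosphatase, had a rebuilt level of 252 in WT villus, 75.8 in crypt and 157 in labelled-DKO villus, the same order of groups as Fos. The authors' deposited tables gave Dusp6 1.73 ± 0.19 (adjusted p 1.97e-17) and 0.68 ± 0.18 (adjusted p 6.85e-04). Errfi1, an inhibitor of the EGF receptor, followed the order of Egr1, with 343 in WT villus, 170 in crypt and 600.2 in labelled-DKO villus. Its signal in labelled-DKO villus was called higher than in WT villus in the authors' deposited table, with Errfi1 at -0.81 ± 0.25 (adjusted p 0.00354). Between the genotypes 4 of the 9 had called changes toward WT and 2 toward labelled-DKO villus, where 22.4% and 29.5% of all genes did.

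**Figure D4:**
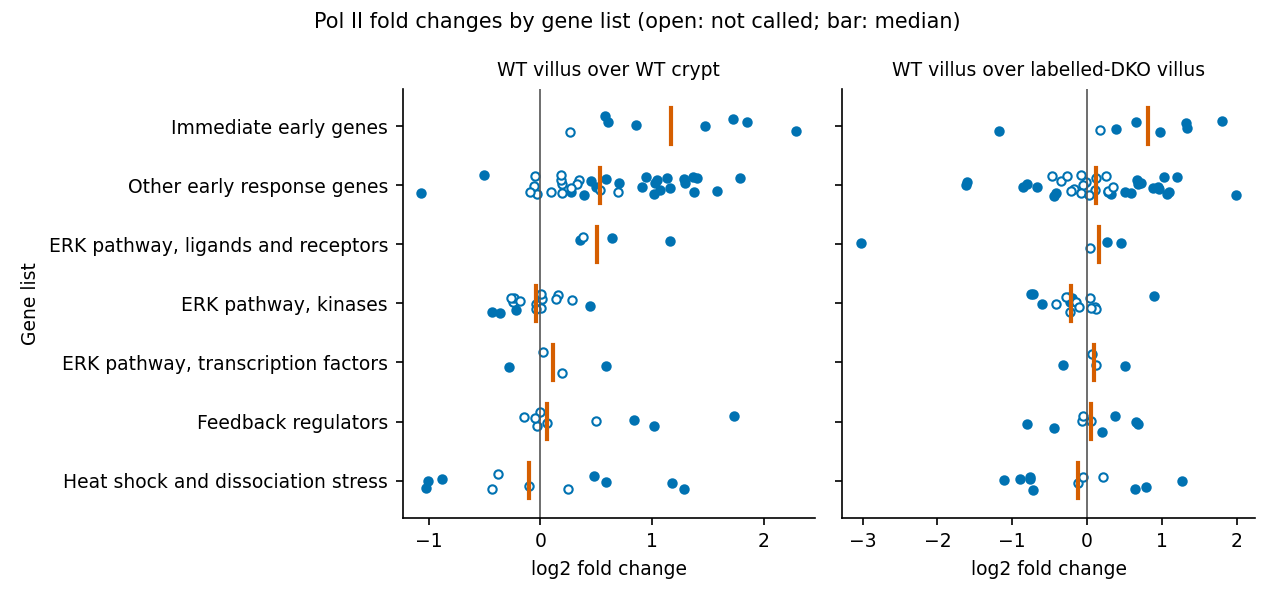
Log2 fold changes (x axis) from the authors' deposited tables for the tested genes of 7 lists (y axis; points are genes, filled where called, orange bars are medians), for WT villus over WT crypt (left) and over labelled-DKO villus (right). Of these 7 lists the immediate early genes have the highest median in both panels, 1.17 and 0.81. The enterocyte markers, which are not shown, had higher medians, 1.55 and 2.44.

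Values of other gene lists were read beside these results. Of 15 heat shock and dissociation stress genes 11 were tested. The authors' deposited table called 4 higher in villus, among them the ubiquitin gene Ubb at 1.29 ± 0.21, and 3 higher in crypt, the chaperone genes Hspd1 at -1.01 ± 0.18, Hspe1 at -1.03 ± 0.22 and Hsp90ab1 at -0.88 ± 0.20. Between the genotypes 3 of the 11 were called toward WT and 5 toward labelled-DKO villus in the authors' deposited table, with Hspd1 at -1.11 ± 0.18 and Hsp90ab1 at -0.90 ± 0.20. The shares of all genes were 18.6% toward villus and 18.8% toward crypt, and 22.4% toward WT and 29.5% toward labelled-DKO villus. The medians of the heat shock and dissociation stress list were -0.10 and -0.12, with members on both sides of 0. Of 12 enterocyte markers 11 were tested, all called higher in WT villus in both of the authors' deposited tables, where 18.6% and 22.4% of all genes were. Their medians were 1.55 and 2.44, above those of the members. For labelled-DKO villus over crypt, 1 of them (Fabp1) was called higher, 3 were called lower and 7 were not called. Of all 6429 genes 874 were called there in either direction. Of 10 immune markers 3 were tested. Cd74, the MHC class II invariant chain, had levels of 188 in WT villus, 115 in crypt and 74.7 in labelled-DKO villus. It was the one of these 3 called in the authors' deposited tables, toward WT villus in both. The cytotoxic granule genes were not called, with levels in the same order of 79.4, 69.6 and 92.9 for Gzma and 39.6, 42.7 and 42.2 for Gzmb. Ptprc and Cd3e were not among the genes of the tables. Of 9 secretory markers 5 were tested, and they went both ways. Muc2 and Tff3, goblet cell genes, were called toward villus against crypt, and Agr2 and Spink4 toward crypt and toward labelled-DKO villus in the authors' deposited tables. Of 14 stem and proliferation markers 3 were tested. The replication gene Pcna had a level of 59.9 in WT villus, 115 in crypt and 92.1 in labelled-DKO villus, and the Wnt target Axin2 had 208, 292 and 271. Both were called toward crypt against villus in the authors' deposited table, while Sp5, at 132, 51.3 and 19.7, was called toward WT villus in both tables. Between the genotypes Pcna was called toward labelled-DKO villus and Axin2 was not called. The 8 mesenchyme markers were not among the genes of the tables. The part of cell makeup and of EDTA time in the values of the members was not tested.

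Most members are short genes, and the tested ones other than Atf3 span 1522 to 3750 bp. Atf3 spans 13037 bp, above the median of 12179 bp for the genes tested. Among the 1541 genes spanning up to 5000 bp, 16.4% were called toward villus against crypt and 19.3% toward WT against labelled-DKO villus in the authors' deposited tables, near the shares of all genes. No window of another gene overlapped those of a member. The nearest tested gene outside the list lay 2.10 kb from Junb (Prdx2), 3.27 kb from Zfp36 (Plekhg2) and 6.78 kb from Ier2 (Nacc1), between the ends of their windows. Prdx2 was not called in either of the authors' deposited tables, at 0.23 ± 0.25 and -0.30 ± 0.25, beside the high values of Junb. Plekhg2 had 0.50 ± 0.18 (adjusted p 0.0214) for villus over crypt and -0.05 ± 0.18 between the genotypes in the authors' deposited tables. Not all of the nearest genes were close: that of Fos (Tmed10) lay 98.7 kb away and that of Jun (Cyp2j6) 1463 kb away. Of the 8 nearest genes, 1 was called toward villus and 2 toward crypt in the authors' deposited table, where 18.6% and 18.8% of all genes were. Between the genotypes 2 were called toward WT and 1 toward labelled-DKO villus, where 22.4% and 29.5% of all genes were. Those toward WT were Neurl1b, 59.3 kb from Dusp1, at 0.80 ± 0.15, and A230020J21Rik, 141 kb from Atf3, at 0.59 ± 0.16 in the authors' deposited table, the first above the value of its member and the second near it. Ier2 and Junb themselves lie 313 kb apart on chromosome 8.

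The counting windows of the members were then examined, in the authors' coordinates on mm9, for the comparison of promoter-proximal with gene body signal. All 10 members had a promoter-proximal window of 402 bp, reaching 100 bp before and 301 bp after the start, for example chr12:86814740-86815141 for Fos, chr7:29163946-29164347 for Zfp36, chr8:87502346-87502747 for Junb, chr4:94718612-94719013 for Jun, chr8:87186450-87186851 for Ier2, chr1:193006911-193007312 for Atf3 and chr17:26645116-26645517 for Dusp1. Gene body windows were given for 9 members, all but Ier3. For Fos and Egr1, on the plus strand, the gene body window began 350 bp after the start, and that of Fos ended at 86817724, 500 bp before the end of the transcript. For the 7 members on the minus strand (Fosb, Jun, Junb, Atf3, Ier2, Dusp1 and Zfp36) the gene body window instead began 350 bp before the start and held the whole promoter window. At Ier2 this window was 2372 bp long, longer than the gene itself, which RefSeq lists at 1522 bp. The Zfp36 window likewise reached 2944 bp past the start of a gene of 2445 bp.

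**Figure D5:**
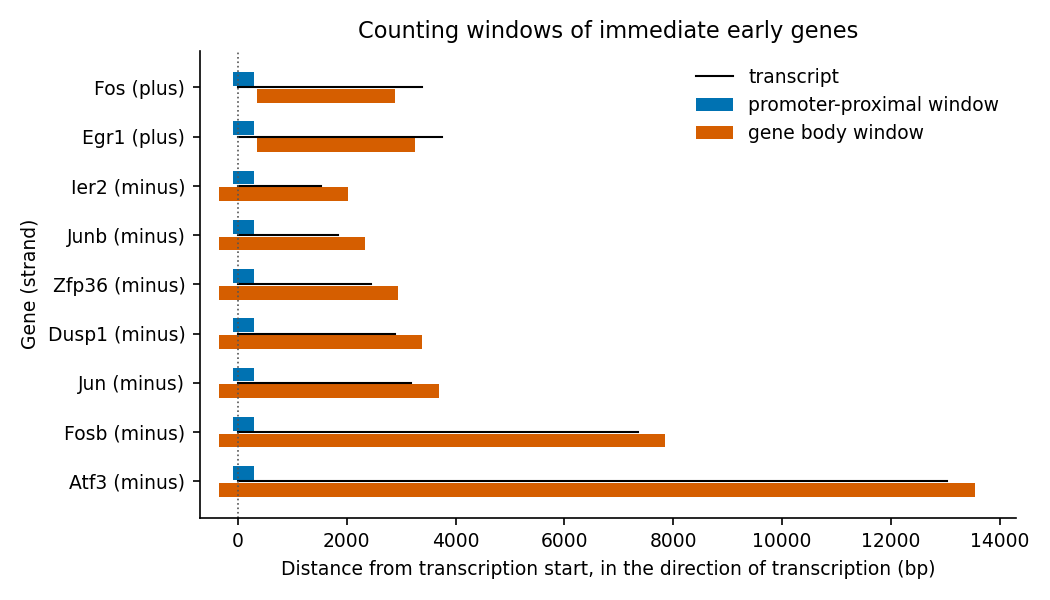
Promoter-proximal (blue) and gene body (orange) windows of 9 members (y axis, with strand) by distance from the transcription start in the direction of transcription (x axis, bp), with the transcript as a black line. The windows are separate at Fos and Egr1, and at the 7 members on the minus strand the gene body window begins 350 bp before the start and holds the promoter window.

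A ratio of the deposited promoter and gene body counts would therefore compare separate regions at Fos and Egr1, and at the 7 minus-strand members it would set the promoter against a region that includes it. The count columns carry no names, could be matched to no library and were not used, so pausing at these genes was not analysed here. Whether the deposited comparisons rest on these windows is not stated in the tables.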

How the data were processed

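Pol II ChIP-seq was analysed from 2 tables of comparisons and from the windows of 2 count files. The submitters' processing notes list mm9, Bowtie2 2.2.6 and DESeq2 1.36.0, with no role or order. Per the file headers, the authors counted read pairs with featureCounts 2.0.3 with duplicates ignored, a minimum mapping quality of 30 and no strand option recorded. The 18 columns of per-library counts carry no names and were not used, so the planned tests of promoter, gene body and ratio were not run. The authors deposited a log2 fold change with its SE, a Wald score, a mean signal (size-factor-normalised counts), and p-values with Benjamini-Hochberg adjustment over 6429 genes. Whether fold changes were shrunk is not stated in these tables. Labels name 3 libraries a group and do not say whether they came from separate animals, so p-values may measure technical spread.

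Group levels and the labelled-DKO villus over crypt comparison were computed from the deposited values with Python 3.11.15, numpy 2.4.6 and scipy 1.17.1, tested on simulated data. The difference in squared SE between the tables, set against the rebuilt levels, was explained to 68.7% with signs as the tables are named, to 40.4% with the first reversed and to 0% with the second reversed. Of 44308 promoter windows 42877 matched a RefSeq symbol. Named genes were the members, the 5 largest called changes of each list in each comparison, and the 5 nearest to Fos. Outside this rule, the targeted genes, the members' nearest neighbours, and Srf, Fosl2, Jund and some cell type markers were named after their values were seen. The members, lists and rules were chosen with earlier results of these data known.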

Additional observations from a re-analysis of the deposited data

How the results depend on the processing

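The counts of called members moved with the size of change required. With a log2 fold change beyond 1, and likewise against changes up to 0.5, 4 members in place of 7 were called toward villus against crypt, and 3 in place of 6 toward WT between the villus groups. Those called in both comparisons under these limits were Zfp36, Junb and Jun, with Fos in the first. Against changes up to 0.5, 1 member (Egr1) in place of 2 was called higher in labelled-DKO villus than crypt. Fewer genes can pass such limits. Beyond 1, 285 and 559 of all 6429 genes were called in either direction, in place of 2403 and 3338. Against changes up to 0.5 these counts were 252 and 637. For labelled-DKO villus over crypt 90 genes were called against changes up to 0.5, in place of 874. An adjusted p under 0.01, centring, a mean signal of at least 100 and leaving out genes with overlapping windows kept each count within 1.5 times, and no member changed direction. The median of the members for villus over crypt was 1.47 with a mean signal of at least 100, which leaves out Dusp1. The labelled-DKO villus over crypt comparison and its alternatives were chosen after seeing the data. No paired analysis was possible because values of single libraries could not be used. Leaving out a library, DESeq2 against edgeR, other size factors and count filters were for that reason not run. Depth per library was not analysed here.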

Other observations

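The placement of gene body windows split by strand over all transcripts with both windows. Of 21190 transcripts on the minus strand, 21190 had a gene body window that began 350 bp before the start and held the promoter window, and of 19858 on the plus strand 0 did. Among genes with 1 transcript, the gene body window differed from the RefSeq gene length by a median of -850 bp on the plus strand. On the minus strand the median was 850 bp. Within 10 bp of these medians lay 65.6% of the plus-strand and 69.8% of the minus-strand genes. A minus-strand window at that median reaches beyond both ends of its gene. At Ier2, 850 of the 2372 bp of the gene body window lay outside the gene.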
